A study of Mus musculus with 2 samples.

Results

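Serpins are a family of proteins of which most members trap a serine or cysteine protease in a covalent complex, and a few have lost that activity. Clade B serpins stay mainly inside the cell, where several protect lymphocytes and phagocytes from the proteases they store in granules, while most serpins of clades A, E, F and I are secreted. In cytotoxic lymphocytes the best known pairs are Serpinb9 with granzyme B and Serpinb6b with granzyme A. The 10 mouse serpin genes described here are Serpinf1, Serpine2, Serpini1, Serpina3f, Serpina3g, Serpinb1a, Serpinb6a, Serpinb6b, Serpinb9 and Serpinb9b, out of 24105 genes with a symbol on the array. They were chosen by symbol after their values on these arrays had been seen, so every difference below is a description and none was tested. They had 13 of the 55681 noncontrol probes, and another 51 genes on the array had a symbol beginning with Serpin.

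The 2 samples were RNA from CD4+ T cells, sorted after 24 h from cultures of spleen cells of female OVA-TCR-Tg mice, whose T cells carry a transgenic receptor for ovalbumin (OVA). In the co-culture, OVA-TCR-Tg spleen cells that had first been stimulated at 2500000 cells/mL with 0.1 µg/mL TSST-1, the toxic shock toxin of Staphylococcus aureus, and that the labels call anergic, were mixed with an equal number of fresh OVA-TCR-Tg spleen cells at 1250000 cells/mL and given 0.1 mg/mL OVA. In the naive-only culture, fresh OVA-TCR-Tg spleen cells were kept alone at 2500000 cells/mL with the same dose of OVA. Nothing in the labels tells if fresh and TSST-1-stimulated T cells were sorted apart, or if animals were pooled, so the co-culture RNA may hold both.

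Each group had 1 array, so no spread between cultures could be measured and no p-value is given. A level is log2 of the processed spot intensity over the 75th percentile of that array, and a difference is the co-culture level minus the naive-only level. The error after ± is the scanner software's technical error of that difference, which leaves out the spread between cultures. A gene counted as measured where the scanner software called its probe well above background on each of the 2 arrays, and a difference of at least 1 on the log2 scale (2-fold) was counted. The share of probes above background was 45.1% on the co-culture array and 46.2% on the naive-only array, and no spot was saturated. All 10 defining CD4 T cell genes were measured, with a median difference of 0.06, 5 positive and 5 negative. Of these, only Cd40lg differed by 2-fold or more, at 4.58-fold lower in the co-culture. Of 12932 measured genes, 8.27% were higher in the co-culture by 2-fold or more and 5.19% were lower by as much, around a median difference of -0.04.

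Of the 10 listed genes, 9 were measured. Serpinf1, Serpinb6a and Serpine2 were at least 2-fold higher in the co-culture, and Serpinb1a, Serpina3f and Serpinb9 were at least 2-fold lower, beside 8.27% and 5.19% of all measured genes. Serpina3g, Serpini1 and Serpinb6b lay within 2-fold. The median difference of the 9 genes was -0.48, with 3 positive and 6 negative. Since the genes were selected on this contrast, these counts say nothing on whether serpins differ more often than other genes.

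**Figure D1:**
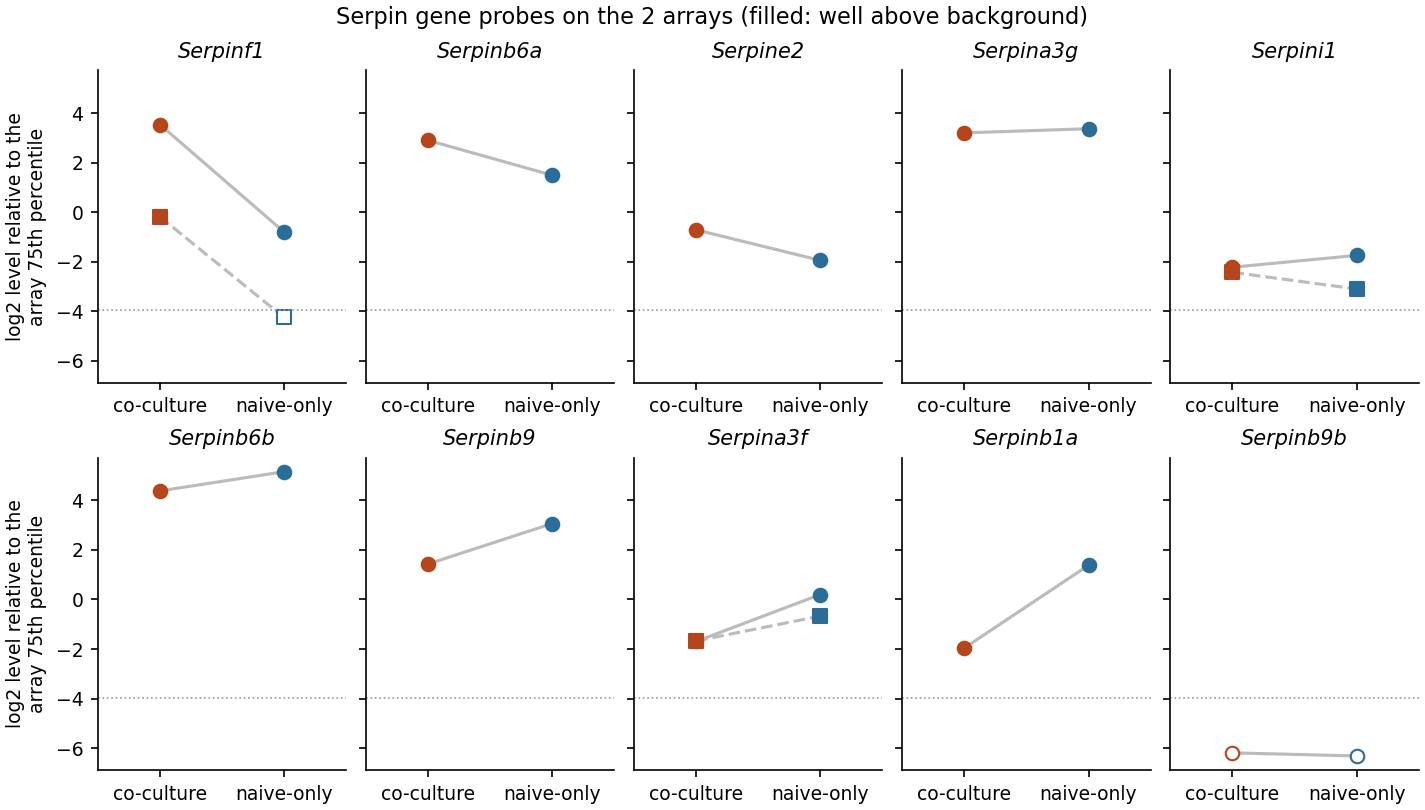
Level of each probe of the 10 listed serpin genes (log2, with each array's 75th percentile at 0) on the co-culture array and on the naive-only array. Circles are the probe that stands for the gene, squares its second probe, open symbols were not well above background, and the dotted line marks the mean of the lowest levels above background on the 2 arrays. Serpinf1 falls steeply to the right, Serpinb1a climbs steeply, and both probes of Serpini1 lie close together in the co-culture and apart in the naive-only culture.

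Probes of the secreted serpins that were higher in the co-culture are printed below, 5′ to 3′ on the strand of the gene, at mm9 coordinates from the array files. The whole 60 bases are given for the second Serpinf1 probe (chr11:75229163-75229222, minus strand) and for the Serpine2 probe (chr1:79793476-79796093, minus strand), whose coordinates span more than its length, so that it crosses at least 1 intron.
Serpinf1: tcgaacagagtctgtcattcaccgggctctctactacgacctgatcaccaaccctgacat
Serpine2: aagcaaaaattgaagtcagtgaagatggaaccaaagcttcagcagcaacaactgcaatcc

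Bases 20 to 49 of the Serpinb6a probe (chr13:34009796-34009855) are set beside the matching stretches of a Serpinb6c probe (chr13:33971686-33971745) and of the Serpinb6e probe (chr13:33924218-33924277), all on the minus strand, because the probes of Serpinb6a and Serpinb6c are nearly alike. Capitals mark bases that differ between Serpinb6a and Serpinb6c in those 2 lines, and bases that differ from Serpinb6a in the Serpinb6e line.
Serpinb6a: tgcaatgGcaATtatgaaataaagggcttT
Serpinb6c: tgcaatgAcaGCtatgaaataaagggcttA
Serpinb6e: tATaatgAcaGttatgaaataaagggTttA

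Serpinf1 encodes pigment epithelium-derived factor, a secreted serpin that inhibits no protease and restrains blood vessel growth. Its brighter probe (chr11:75223582-75223641) had a signal of 3498 in the co-culture and 172 in the naive-only culture, with levels of 3.54 in the co-culture and -0.80 in the naive-only culture. The difference was 4.34 ± 0.21, or 20.2-fold higher in the co-culture, rank 12 from the highest of the 12932 measured genes. The second probe, printed above, had a signal of 265.1 in the co-culture and 15.8 in the naive-only culture, where it was not well above background, so its difference was at least 14.2-fold. Both probes were thus far higher in the co-culture. A bound of this kind sets the level on the brighter array against the higher of the lowest level above background on the other array and the probe's own level there.

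Serpine2 encodes protease nexin 1, a secreted inhibitor of thrombin and of plasminogen activators. Its signal was 183.8 in the co-culture and 77.8 in the naive-only culture, with levels of -0.71 in the co-culture and -1.94 in the naive-only culture. The difference of 1.23 ± 0.22, or 2.35-fold higher in the co-culture, ranked 781 from the highest, and it was 1.77-fold with the normexp background correction, which no longer counts as 2-fold. Serpini1, neuroserpin, inhibits tissue plasminogen activator and is best known from neurons. One of its probes (chr3:75446123-75446182) had a signal of 64.7 in the co-culture and 89.5 in the naive-only culture, a difference of -0.48 ± 0.23. The other (chr3:75420571-75420630) had 56.1 in the co-culture and 35.0 in the naive-only culture, a difference of 0.67 ± 0.29. The 2 probes differed in sign, so no direction is given for Serpini1.

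The proteases of these secreted serpins were at background. Of 5 genes for receptors of serpins, their complexes or their proteases, all measured, 1 was higher and 1 lower by 2-fold or more. Their median difference was 0.16. Of all measured genes, 8.27% were higher and 5.19% lower by as much, and 5 genes are too few to set against these shares. Plat and Plau, which encode the tissue and urokinase plasminogen activators, and F2, which encodes prothrombin, were at background on each array. Plaur, the urokinase receptor, to which complexes of urokinase with serpins bind, had a signal of 1119 in the co-culture and 4645 in the naive-only culture, 4.18-fold lower in the co-culture. F2r, the thrombin receptor, had 1790 in the co-culture and 280.1 in the naive-only culture, 6.35-fold higher in the co-culture. Lrp1, the receptor that clears serpin and protease complexes, and Pnpla2 and Rpsa, which encode receptors described for the Serpinf1 protein, differed by 0.31, 0.16 and -0.02.

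Serpinb6a and Serpinb6b are clade B serpins of the same subfamily, and they differed in opposite directions. Serpinb6a, the mouse counterpart of human SERPINB6, an inhibitor of cathepsin G, had a signal of 2246 in the co-culture and 840.7 in the naive-only culture, with levels of 2.90 in the co-culture and 1.49 in the naive-only culture. Its difference of 1.41 ± 0.20, or 2.66-fold higher in the co-culture, ranked 602 from the highest. The Serpinb6a probe matched a probe of Serpinb6c at 55 of 59 aligned bases, and the substitutions, counted from the 5′ end of the Serpinb6a probe, were G27A, A30G, T31C and T49A. That Serpinb6c probe had 890.4 in the co-culture and 340.0 in the naive-only culture, a difference of 1.38, and a second, overlapping one had 1655 in the co-culture and 586.1 in the naive-only culture, a difference of 1.49 ± 0.20. With probes this alike, transcripts of Serpinb6a and Serpinb6c cannot be told apart on this array. The Serpinb6e probe, which differs from Serpinb6a at 6 bases of the stretch printed above, was at background on both arrays, with 4.58 in the co-culture and 4.30 in the naive-only culture.

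Serpinb6b inhibits granzyme A and was lower in the co-culture. Its probe (chr13:33070776-33070835) had a signal of 6261 in the co-culture and 10645 in the naive-only culture, with levels of 4.38 in the co-culture and 5.15 in the naive-only culture. The difference was -0.77 ± 0.20, or 1.71-fold lower in the co-culture, the closest of the uncounted genes to 2-fold.

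Serpinb9 encodes the inhibitor of granzyme B that shields killer cells and dendritic cells from their own or neighbouring granule contents. Its probe (chr13:33109767-33109824) had a signal of 811.1 in the co-culture and 2500 in the naive-only culture, with levels of 1.43 in the co-culture and 3.06 in the naive-only culture. The difference was -1.63 ± 0.20, or 3.10-fold lower in the co-culture, rank 258 from the lowest. Its neighbour Serpinb9b, an inhibitor of granzyme M (chr13:33132294-33132353), was at background on each array, with 4.13 in the co-culture and 3.77 in the naive-only culture.

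The granzymes themselves were mostly higher in the co-culture. Of 10 granzyme genes, 5 were measured on both arrays, all 5 with a positive difference and 3 of them at least 2-fold, and their median was 1.27, beside -0.04 over all genes. Gzmb, the target of Serpinb9, had a signal of 129687 in the co-culture and 5986 in the naive-only culture, 21.5-fold higher in the co-culture. Gzma, the target of Serpinb6b, had 22167 in the co-culture and 6336 in the naive-only culture, 3.48-fold higher in the co-culture. For both pairs the inhibitor's signal was lower and the protease's higher in the co-culture. Gzmc was 2.42-fold higher in the co-culture, Gzmk and Gzmm differed by 0.49 and 0.43, and Gzme was above background only in the co-culture, with 100.9 there and 4.87 in the naive-only culture. Gzmd, Gzmf, Gzmg and Gzmn were at background on both arrays.

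Serpinb1a had the lowest difference of all serpins measured. It encodes an inhibitor of the neutrophil granule proteases elastase, cathepsin G and proteinase 3. Its probe (chr13:32934693-32934752) had a signal of 77.6 in the co-culture and 778.8 in the naive-only culture, with levels of -1.96 in the co-culture and 1.38 in the naive-only culture. The difference was -3.34 ± 0.23, or 10.1-fold lower in the co-culture, rank 33 from the lowest. With the normexp background correction, which adds an offset to every signal, it was 5.84-fold lower. Among the proteases it inhibits, Elane, neutrophil elastase, differed by -0.27, Ctsg, cathepsin G, was above background only in the naive-only culture, and Prtn3, proteinase 3, was at background on both arrays. Of the 8 cathepsin and neutrophil granule protease genes, 5 were measured, 0 higher and 2 lower in the co-culture by 2-fold or more, with a median of -0.27. The 2 were Ctsh and Ctss, cathepsins H and S of the lysosome, at 5.89-fold and 2.08-fold lower in the co-culture.

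**Figure D2:**
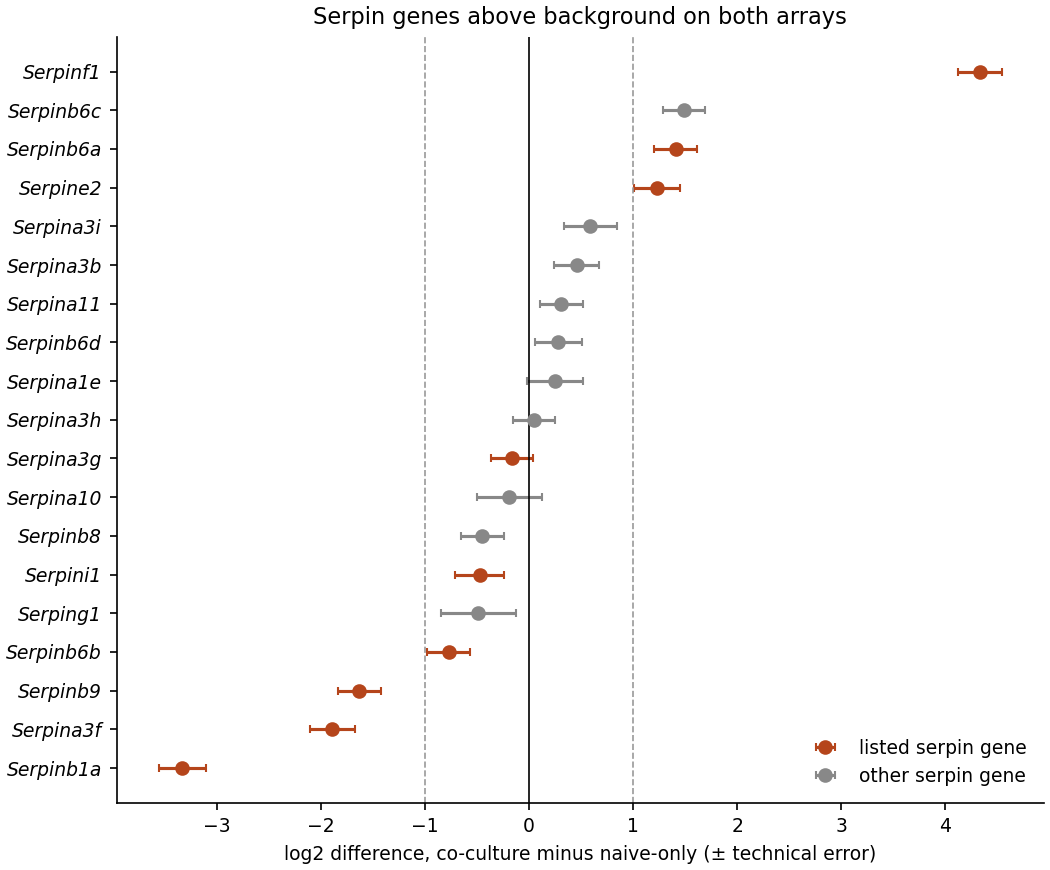
Difference in log2 level, co-culture minus naive-only, for 19 serpin genes measured on both arrays. Points are the 9 listed genes (orange) and 10 others (grey), bars the technical error, and dashed lines 2-fold; Serpinf1 at 4.34 and Serpinb1a at -3.34 lie farthest from 0.

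Serpina3f and Serpina3g lie side by side in the clade A3 cluster of chromosome 12, where mice carry many copies of what in humans is a single antichymotrypsin gene. Serpina3g, also called Spi2A, is an inhibitor of cathepsin B in activated and memory lymphocytes. Its probe (chr12:105480045-105480104) had a signal of 2770 in the co-culture and 3088 in the naive-only culture, a difference of -0.17 ± 0.20, within its technical error. Ctsb, cathepsin B, differed by 0.07. Serpina3f had a signal of 93.2 in the co-culture and 343.7 in the naive-only culture at its brighter probe (chr12:105458989-105459048), a difference of -1.89 ± 0.22, or 3.71-fold lower in the co-culture, rank 187 from the lowest. Its second probe (chr12:105492556-105492615) had 94.5 in the co-culture and 188.2 in the naive-only culture, 2.01-fold lower in the co-culture. Both Serpina3f probes were lower in the co-culture, but the second lies next to the Serpina3h probe and also lists a Serpina3h transcript, so it may read either gene; the Serpina3h probe itself differed by 0.05.

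The promoters of these neighbours share a stretch of sequence. In RefSeq windows (GRCm38.p6) from 250 bases before to 50 after each transcript start, 9 of the 10 listed genes had an entry. The motif TTCNNNGAA, the pattern that STAT factors bind and its own reverse complement, was in windows of 3 of the 9 genes (Serpina3f, Serpina3g and Serpinb6a) and in 8.3% of all 32851 windows. The motif of TTTC, any 2 bases and TTTC again, on either strand, part of the interferon-stimulated response element, was in windows of 2 of the 9 (Serpinb9 and Serpinb6a) and in 3.44% of all windows. The Serpina3f stretch (chr12:104214399-104214455, plus strand) has its match 121 bases before its upstream start, the Serpina3g stretch (chr12:104236090-104236146, plus strand) 33 before, and the Serpinb9 stretch (chr13:33004471-33004528, plus strand) 46 before. They are shown with the motif in capitals.
Serpina3f: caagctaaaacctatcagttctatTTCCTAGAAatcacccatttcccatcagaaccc
Serpina3g: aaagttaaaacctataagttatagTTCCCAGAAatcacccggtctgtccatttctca
Serpinb9: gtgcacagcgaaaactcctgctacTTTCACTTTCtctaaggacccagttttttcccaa

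Serpina3f and Serpina3g both hold the motif, although Serpina3f was 3.71-fold lower and Serpina3g differed by -0.17. In Serpinb6a, which was higher in the co-culture, the first of 2 matches of TTCNNNGAA begins 77 bases before the start of one transcript and the match of the other motif begins 84 before it, and they overlap. A match is only a run of letters, and binding was not measured. Of 12 interferon-induced genes, 9 were measured, 6 of them at least 2-fold lower in the co-culture, with a median of -3.18; all 3 others were above background only in the naive-only culture. Oasl1, an interferon-induced regulator of antiviral signalling, had 53.8 in the co-culture and 1203 in the naive-only culture, 22.5-fold lower in the co-culture. Irf1, an interferon-induced transcription factor, differed by -0.91, within 2-fold.

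**Figure D3:**
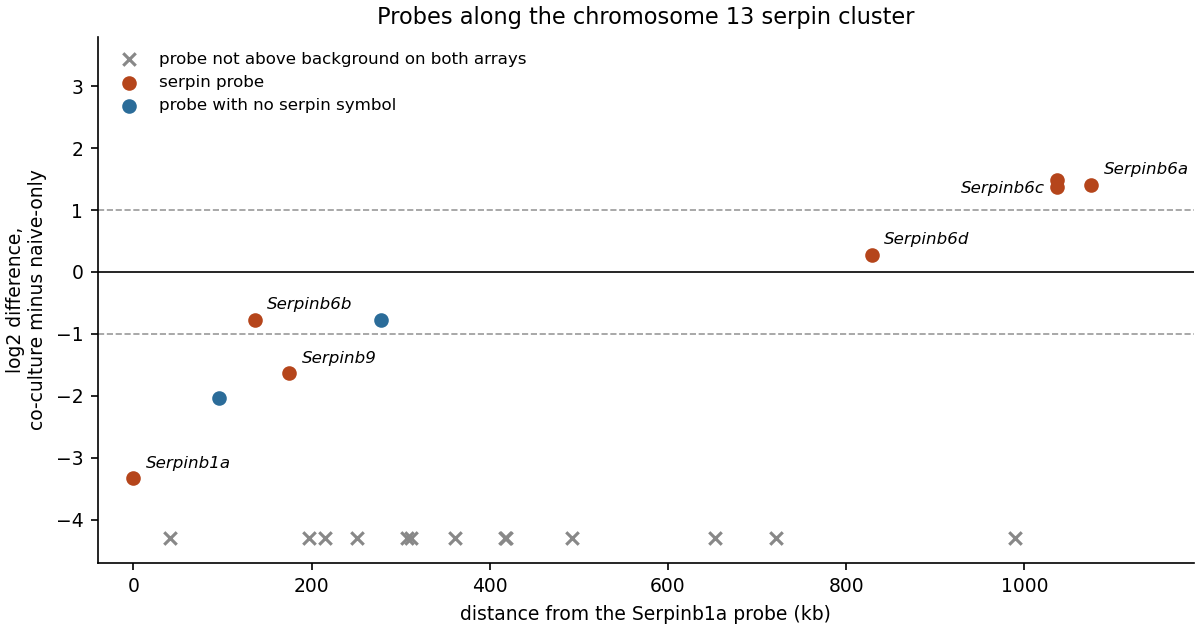
Difference in log2 level, co-culture minus naive-only, of the 22 probes along the clade B serpin cluster of chromosome 13, by distance from the Serpinb1a probe in kilobases. Orange points are serpin probes and blue points probes with no serpin symbol, crosses mark probes that were not above background on both arrays, and dashed lines mark 2-fold; measured serpin probes at the Serpinb1a end lie below 0 and those at the Serpinb6a end above it.

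The chromosome 13 cluster held 15 clade B genes over 1075 kb, of which 6 were measured, 2 higher and 2 lower in the co-culture by 2-fold or more. The measured genes at one end, Serpinb1a, Serpinb6b and Serpinb9, had negative differences of -3.34, -0.77 and -1.63. Those at the other end, Serpinb6d, Serpinb6c and Serpinb6a, had positive differences of 0.28, 1.49 and 1.41. The genes between these groups, among them all other Serpinb9 paralogs, were at background on both arrays. With 6 genes, and with Serpinb6a and Serpinb6c probes that may read the same transcripts, this order is a description of the cluster.

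Of the 51 other serpin genes, 11 were measured, 6 were above background only in the naive-only culture and 34 on neither array. Of the 11, Serpinb6c alone was at least 2-fold higher in the co-culture, and their median was 0.25. The 6 genes above background only in the naive-only culture were Serpina1a, Serpina9, Serpinb12, Serpinb2, Serpinb3c and Serpinb5, with bounds from 1.01-fold to 1.87-fold lower in the co-culture, all dim. Serpina1a and Serpinb12 each had a second probe, which was at background on both arrays. The second Serpinb12 probe overlaps the one that gave the bound of 1.87-fold. No serpin gene was above background only in the co-culture.

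**Figure D4:**
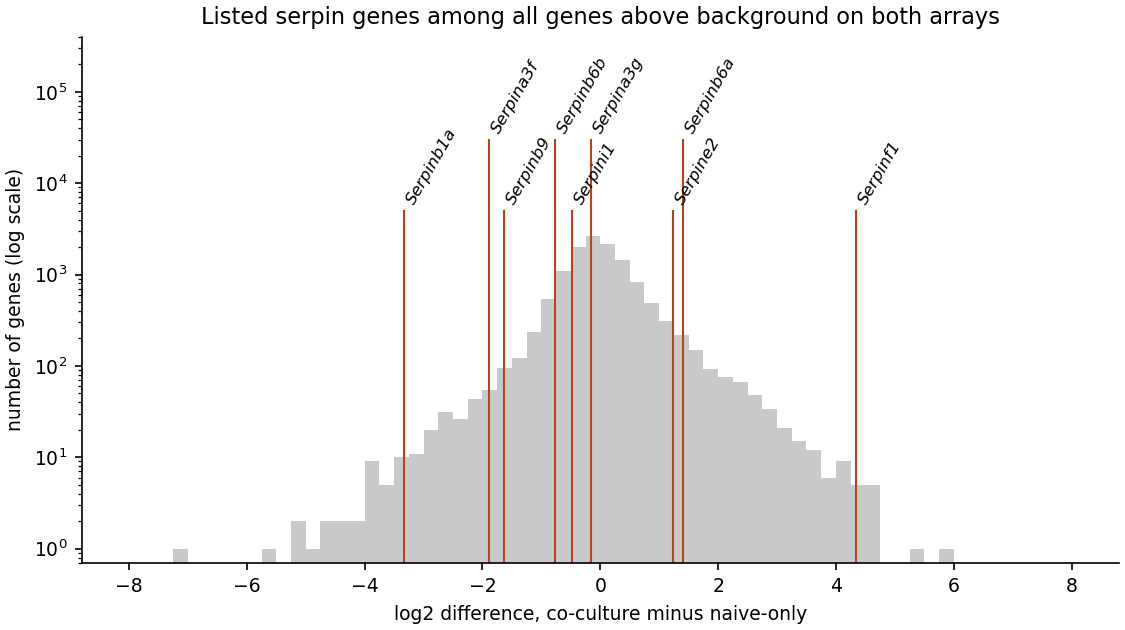
Number of genes (log scale) by difference in log2 level, co-culture minus naive-only, for the 12932 measured genes in steps of 0.25, with vertical lines at the 9 measured listed serpin genes. Serpinf1 lies in the upper tail and Serpinb1a in the lower tail, whereas Serpina3g, Serpini1 and Serpinb6b lie in the bulk.

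Markers of other spleen cells differed between the arrays, and in sorted bulk RNA fewer cells of a type and less RNA per cell cannot be told apart. Of 12 B cell markers, 10 were measured and all 10 were at least 2-fold lower in the co-culture, with a median of -1.74 and a summed scaled signal (each gene's signal divided by the array's 75th percentile) of 9.23 in the co-culture and 41.4 in the naive-only culture; Blk and Pax5 were above background only in the naive-only culture. The measured B cell markers had negative differences, as did Serpinb1a, Serpina3f and Serpinb9, and as did 6911 of all 12932 measured genes. Of 10 dendritic cell markers, 6 were measured, 1 higher and 2 lower by at least 2-fold, with a median of -0.66. Their summed signals were 206.4 in the co-culture and 175.6 in the naive-only culture, mostly from the Siglech probe, which differed by -0.12. The higher sum in the co-culture came from Batf3, with a signal of 16718 in the co-culture and 1463 in the naive-only culture. Batf3 was 11.4-fold higher in the co-culture, Fscn1 and Flt3 were 23.6-fold and 7.29-fold lower, Ccl22 was above background only in the naive-only culture, and Xcr1, Clec9a and Cd209a were at background on both arrays. Of 7 natural killer markers, 2 were measured, both at least 2-fold lower, with summed signals of 2.94 in the co-culture and 6.37 in the naive-only culture, and the remaining markers went both ways. Ncr1 and Klra8 were above background only in the naive-only culture, whereas Klrd1 and Klrk1 were above it only in the co-culture, at least 4.57-fold and 2.65-fold higher there. The part of these cells in the lower serpins was not tested.

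Neutrophil and monocyte markers are given because Serpinb1a and Serpinb6a inhibit myeloid proteases. Of 10 neutrophil markers, 5 were measured, 1 higher and 1 lower by at least 2-fold, with a median of 0.24 and summed signals of 152.2 in the co-culture and 116.1 in the naive-only culture, mostly from the Csf3r probe. Ly6g, a surface protein of neutrophils, was the higher one, with a signal of 4899 in the co-culture and 87.6 in the naive-only culture, 55.6-fold higher in the co-culture and rank 1 from the highest of all measured genes, and Camp, a granule peptide, was 2.86-fold lower. Mpo was above background only in the co-culture, Ngp and Ltf only in the naive-only culture, and Cxcr2 and Retnlg on neither array. The part of neutrophils in the serpin differences was not tested. Of 10 monocyte and macrophage markers, 7 were measured, 0 higher and 2 lower by at least 2-fold, with a median of -0.09 and summed signals of 16.7 in the co-culture and 16.1 in the naive-only culture; Fcgr1 and C1qa were among those at background on both arrays. Stromal cells, in which Serpinf1 and Serpine2 are well known, had 4 of 10 markers measured, none at least 2-fold different and all 4 with a positive difference (median 0.42), and summed signals of 1.11 in the co-culture and 2.89 in the naive-only culture; Col1a1, Dcn and Pdgfra were at background on both arrays, and Col1a2, Pdgfrb and Cxcl12 were above it only in the naive-only culture. Of the 4 measured stromal markers, Col3a1 and Lum differed by 0.23 ± 0.43 and 0.10 ± 0.26, within their technical errors. Sparc and Fbln1 differed by 0.62 ± 0.41 and 0.82 ± 0.22. Most of the gap between the summed stromal signals came from Col1a2, with a signal of 19.7 in the co-culture and 519.8 in the naive-only culture. The part of stromal cells in Serpinf1 and Serpine2 was not tested. Of 6 platelet markers, Pf4 alone was measured, 2.21-fold higher in the co-culture, and the other 5 were at background on both arrays. Of 4 CD8 T cell markers, all measured, 1 was higher and 1 lower by 2-fold or more, of 3 measured red cell precursor markers 1 was higher and 2 lower, and of 6 mast cell and basophil markers 0 were measured on both arrays.

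**Figure D5:**
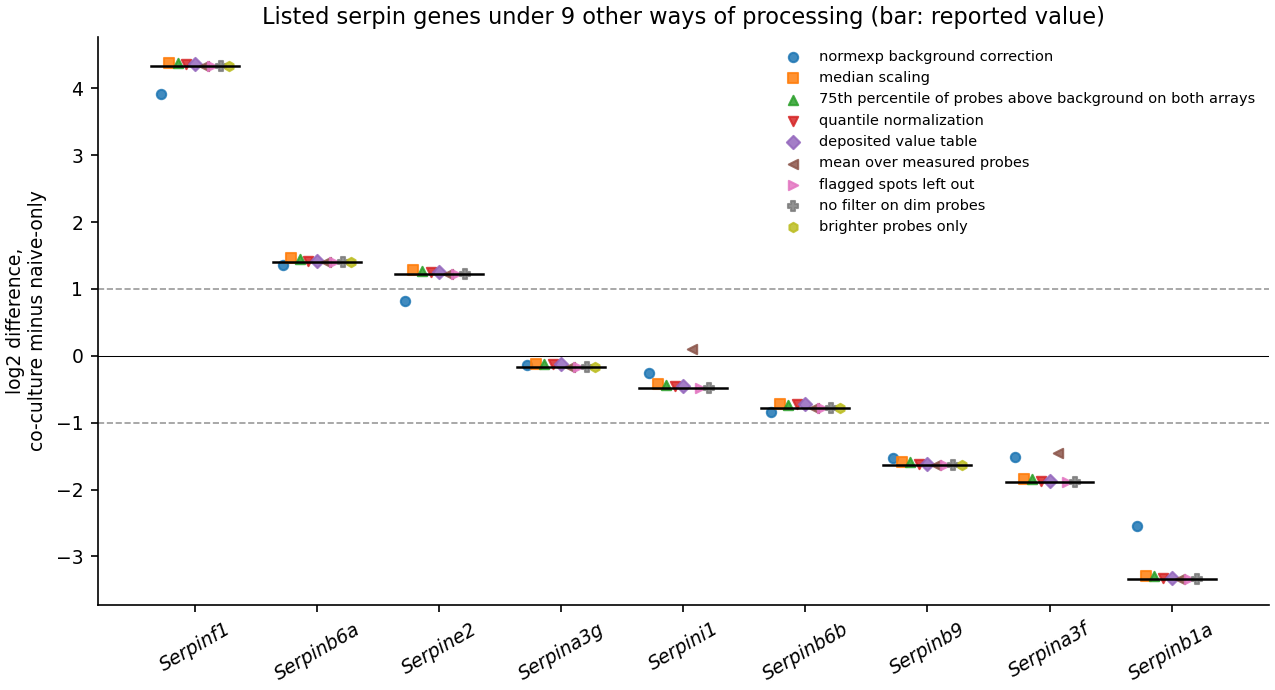
Difference in log2 level, co-culture minus naive-only, of the 9 measured listed genes as reported (bars) and under 9 other ways of processing (symbols), with dashed lines at 2-fold. Serpini1 alone crosses 0, where its probes are averaged, and Serpine2 alone crosses the 2-fold line, with the normexp background correction.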

How the data were processed

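RNA from CD4+ T cells of 1 co-culture and 1 naive-only culture was amplified with the Ovation V2 system and labelled with Cy3 by an enzymatic genomic DNA kit, per the labels' protocols; amplification can change relative levels. Agilent Feature Extraction 10.7.1.1 made the processed, background-subtracted intensity, per the file headers, while the submitters' processing notes name 9.5.1.1. The value table that the authors deposited is a linear intensity, equal between arrays after sorting within 0.0369%, as quantile normalization gives.

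Each array had 62976 spots. The log2 values were computed here from the processed spot intensity of Feature Extraction, not from the authors' value table. Each is the mean over a probe's spots, relative to the 75th percentile of that array's noncontrol probes. That percentile was 301.3 in the co-culture and 299.4 in the naive-only culture. A gene was represented by its brightest probe among those above background on most arrays. Levels were compared within a probe. Both groups have 1 array, which limits the precision, so no test was made. The scripts, checked on simulated data, used Python 3.11.15, numpy 2.4.6, pandas 2.3.3 and limma 3.58.1 (normexp, offset 50).

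The serpin genes, the lists and the alternatives were chosen with earlier results of these data known. All 129 genes of the protease, receptor, interferon and marker lists were found on the array, 1 through its transcript accession. Every listed serpin gene is named, other serpins where at least 2-fold different or above background on 1 array, and list genes by size of difference or as a target; some genes are counted in these lists but not reported here by name. Genome annotation beyond the array files and RefSeq promoter windows was not used here. The 9 alternatives were normexp background correction, median scaling, scaling on probes above background, quantile normalization, the deposited table, the mean over probes, leaving out outlier spots, no filter and brighter probes only.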

Additional observations from a re-analysis of the deposited data

How the results depend on the processing

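Over 9 alternatives, 146 values stayed close to those reported, 21 moved and none was reversed in sign while past 2-fold. The alternatives are not independent checks of the listed genes. No serpin spot was flagged as an outlier, and lifting the filter changed no difference of a measured listed gene. The deposited table gave nearly the values of quantile normalization. Counted as close was the fall from 3 to 2 listed genes at least 2-fold higher with normexp. With normexp background correction, Serpinf1 was 3.91, Serpinb1a -2.55, Serpina3f -1.51 and Serpine2 0.82 (log2), the median of the listed genes was -0.26, and 0 other serpin genes were at least 2-fold lower. That count was also 0 with median scaling and with the 75th percentile of probes above background. With the mean over probes, Serpina3f was -1.45, Serpini1 0.10 in place of -0.48, and the listed median -0.17. With no filter on dim probes, 3 other serpin genes were at least 2-fold higher and 5 lower, and over all genes 2254 and 1764, beside 1070 and 671 as reported. With brighter probes only, 5 listed genes were left, 1 of them at least 2-fold lower, with a median of -0.17. Serpinb1a, Serpina3f, Serpine2 and Serpini1 dropped out, as their mean level over the arrays was not above the limit of 0.892. That setting left 4 other serpins with a median of -0.20, and over all genes 488 were higher and 244 lower. Over all genes, 440 were lower with normexp. Why values moved was not tested, apart from the genes that the last 2 settings add or remove. No replicate could be left out. No paired analysis was possible because each group has 1 array.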

Other observations

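Probes in the chromosome 13 serpin cluster that carry no serpin symbol are given here as values. One named only by the transcript NP1260051 (chr13:33030430-33030489, mm9), between the Serpinb1a and Serpinb6b probes, had a signal of 76.9 in the co-culture and 313.6 in the naive-only culture, a difference of -2.04. Another, with no gene name (chr13:33212915-33212974), had 1970 in the co-culture and 3351 in the naive-only culture, a difference of -0.78. A probe named TC1600187 was above background only in the naive-only culture, with 4.22 in the co-culture and 31.6 in the naive-only culture, and the Gm6093 probe was at background on both arrays. The closest serpin probe to NP1260051, on either strand, matched at 13 of 20 aligned bases, and the closest to the unnamed probe at 22 of 38. Only probe sequences were compared, so these matches cannot tell if either probe reads another part of a serpin transcript.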
